A study of Mus musculus with 6 samples.

Results

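The 59 genes described here encode proteins that assemble, sever, bundle and pull on actin filaments and that join them to the plasma membrane, to focal adhesions and to podosomes, the actin-rich contacts with which myeloid cells grip and degrade matrix. They were picked by function, as a list of gene symbols, from the 41079 genes of the deposited tables. Of the 59, 58 were found by their symbol and 1, Tks5, through its synonym Sh3pxd2a.

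Actin cycles between a pool of monomers and filaments with a growing and a shrinking end. The Arp2/3 complex, switched on by WASP and WAVE proteins, starts branched networks, while formins and Ena/VASP proteins drive straight filaments, bundlers and tropomyosins give these their stability, and myosins pull on them. Microglia, the resident macrophages of the brain, depend on this machinery to move their fine processes, to migrate and to engulf debris.

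RNA was sequenced from primary microglia of neonatal C57Bl/6N mice aged 1 to 3 days, in 3 control and 3 optimized libraries. Mixed glia from several pooled brains had been grown in flasks with serum and L-929 conditioned medium, a source of macrophage colony-stimulating factor, before microglia were shaken off, so both groups share this history and a short period of attachment in serum. Control cells were then kept in serum-free DMEM/F12. Optimized cells received human TGF-β1, human IL-34 and CX3CL1 in that medium, each at 100 ng/mL, and by the study's methods also cholesterol, insulin-transferrin-selenium and a collagen IV coating, which the labels do not name. The effects of these components cannot be told apart.

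The libraries held 20628148 to 27261839 counts, and the 10 most abundant genes took 14.3% to 24.1% of them. All 8 microglial markers were present in every library, summing to 7977 to 8606 CPM (counts scaled to the library total) in control and 12441 to 15940.0 CPM in optimized libraries. Of these 8, 5 were called higher and 2, Csf1r and Aif1, lower. Summed markers of astrocytes were 32.4 to 35.5 CPM in control and 22.6 to 25.5 CPM in optimized libraries, with Aldh1l1 called lower and Chi3l1 higher among 6 genes, those of oligodendrocytes and their precursors 128 to 143 and 160 to 192 CPM, and those of neurons 3.07 to 4.72 and 5.30 to 6.34 CPM. Fibroblast markers summed to 34.5 to 48.8 CPM in control and 31.0 to 151 CPM in optimized libraries, with the highest value in optimized replicate 3, where Col3a1 reached 72.0 CPM. Pericyte and smooth muscle markers summed to 11.5 to 13.1 CPM in control and 10.2 to 33.8 CPM in optimized libraries, with the highest value in optimized replicate 1. Endothelial markers summed to 78.8 to 94.4 and 271 to 349 CPM, nearly all of it Flt1, while Cldn5 did not pass 0.095 CPM in any library. In bulk RNA, fewer cells of a type and less RNA per cell cannot be told apart. Replicate 1 of both groups leaned towards long genes, with rank correlations across genes between gene length and the deviation from the group mean of 0.28 in control and 0.45 in optimized libraries. The study describes the replicates as biological, while the labels do not tell whether they came from separate cultures or animals. The p-values measure the spread between these libraries.

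Most of the called actin genes were lower in the optimized cultures. All 59 genes passed the filter on low counts, and the quasi-likelihood test of edgeR, adjusted by Benjamini-Hochberg over 14618 genes with a threshold of 0.05, called 23 of them lower and 4 higher, with 32 not past the threshold. Over all genes tested, 15.2% were called lower, 14.7% higher and 29.8% in either direction. The 4 that rose were Myh9, Ezr, Msn and Tmsb4x. The median log2 fold change of the 59 genes was -0.19, against 0.0079 over all genes tested, and 41 had a negative and 18 a positive value. Every optimized library lay below every control library in 27 of the 59 genes, against 22.5% of all genes tested, and above in 6, against 21.4%. Together the 59 genes took 2.91 ± 0.051% of all counts in control and 2.33 ± 0.020% in optimized libraries (SD, n = 3), with no overlap between the groups. These are shares of raw totals, before scaling. The 10 most abundant genes took 14.3% to 17.2% of those totals in control and 19.0% to 24.1% in optimized libraries. Their part in the lower share of the 59 genes was not tested. The split between directions moved with the scaling: limma on the deposited FPKM values, as log2(FPKM + 1), called 30 lower and 1 higher. The same fit called 3267 of all 14618 genes tested lower and 1472 higher, and the median of all genes tested itself stood at -0.087 on that scale.

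**Figure D1:**
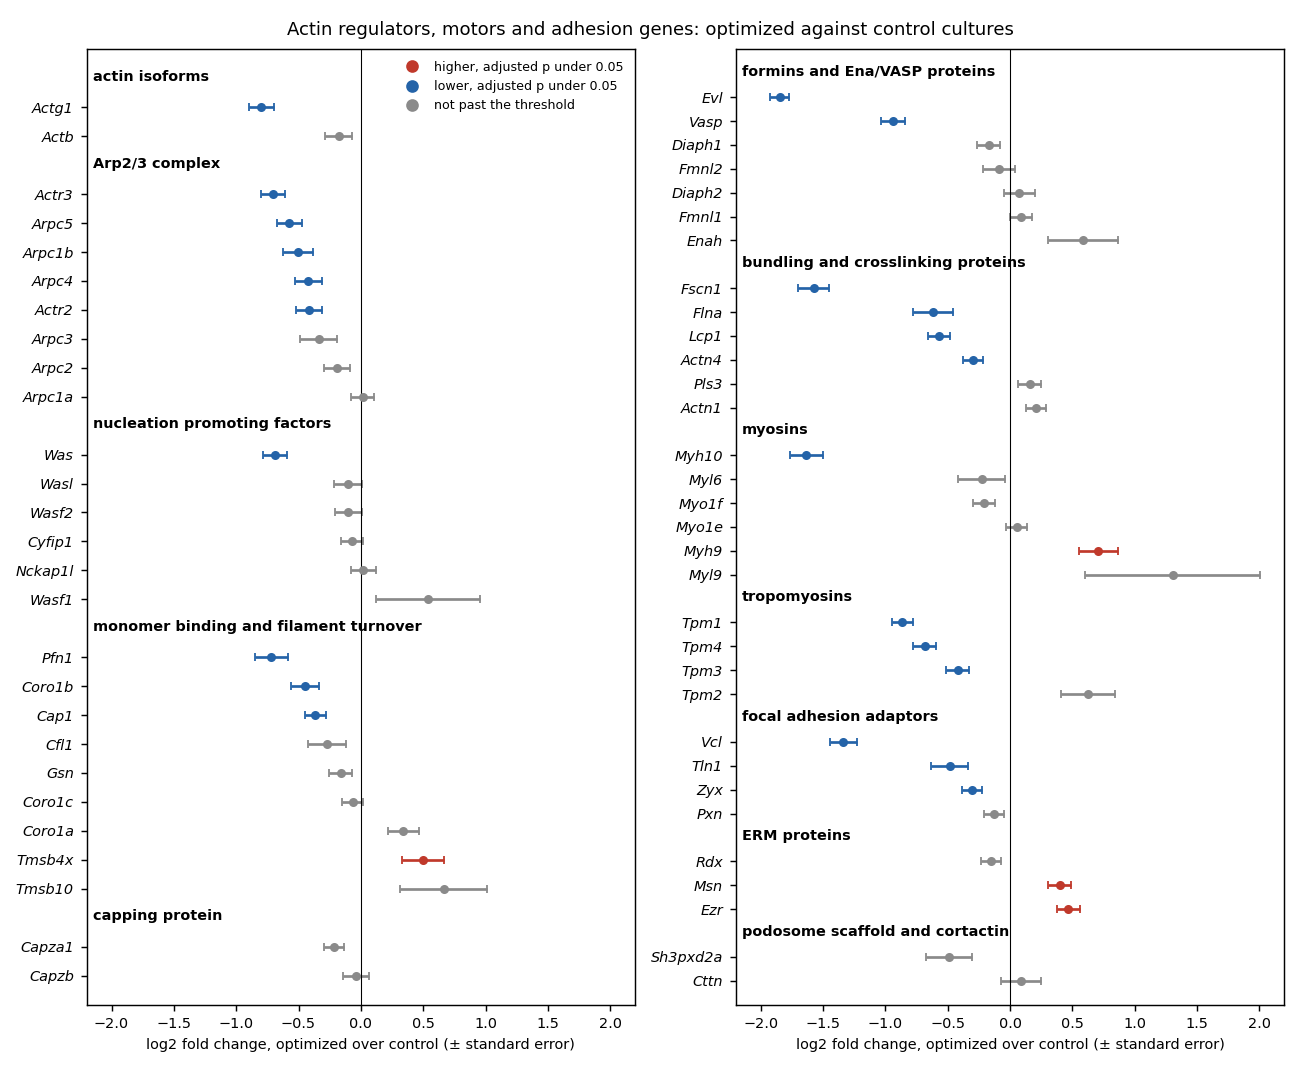
Log2 fold change of each of the 59 genes (horizontal axis, optimized over control, bars ± standard error), grouped by role, with colours for the result of edgeR's quasi-likelihood test. Evl at -1.85, Myh10 at -1.63, Fscn1 at -1.58 and Vcl at -1.34 lie farthest to the left, while Myl9 at 1.30, with an error of 0.70, lies farthest to the right.

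Several of these genes are known targets of serum response factor (SRF), which binds a short A/T-rich motif called the CArG box and whose cofactors, the MRTFs, are held in check by monomeric actin. RefSeq promoter windows, reaching from 250 bases before to 50 bases after the transcription start on GRCm38.p6, were found for 51 of the 59 genes. No window was found for Actb, Cyfip1, Nckap1l, Coro1b, Diaph1, Pxn, Sh3pxd2a and Cttn, so these were not searched. A CArG box was sought as CC, 6 bases of A or T, and GG, a pattern that is the same on both strands. The box stood in the windows of 6 of these 51 genes, or 11.8%. Among the 10921 tested genes with a window the share was 1.58%, and among all 27025 genes with one it was 1.81%. The stretches that hold the box are printed here, in capitals within the strand of the gene, because these genes are described below by what their counts did.
Vcl, chr14:20929148-20929247, plus strand: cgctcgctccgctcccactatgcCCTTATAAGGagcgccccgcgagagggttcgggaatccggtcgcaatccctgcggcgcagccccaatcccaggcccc
Actg1, chr11:120348531-120348630, minus strand: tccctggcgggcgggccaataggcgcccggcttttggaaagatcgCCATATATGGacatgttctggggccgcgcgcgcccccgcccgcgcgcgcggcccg
Arpc4, chr6:113377863-113377962, plus strand: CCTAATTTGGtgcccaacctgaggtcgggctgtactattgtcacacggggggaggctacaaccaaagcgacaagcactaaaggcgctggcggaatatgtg
Myl6, chr10:128493010-128493109, minus strand: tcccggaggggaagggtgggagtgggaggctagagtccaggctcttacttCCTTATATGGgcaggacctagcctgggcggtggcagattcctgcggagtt
Myl9, chr2:156775258-156775357, plus strand: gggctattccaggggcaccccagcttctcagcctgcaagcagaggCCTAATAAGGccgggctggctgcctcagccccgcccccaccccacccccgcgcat
Myo1e, chr9:70207250-70207349, plus strand: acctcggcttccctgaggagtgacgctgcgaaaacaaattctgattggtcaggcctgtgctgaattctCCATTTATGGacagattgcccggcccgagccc

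The box of Myo1e began 32 bases before the start, that of Myl6 50, Actg1 90, Myl9 161, Vcl 227 and Arpc4 250 bases before it. Vcl, Actg1 and Arpc4 were called lower, and Myl6, Myl9 and Myo1e were not called. The box was thus in 3 of the 22 lower members with a window, in 3 of the 25 that were not called and in none of the 4 higher ones. Among all tested genes it stood in 31 of 1699 lower and in 17 of 1607 higher genes. A match of letters in such a window is a description and says nothing of whether SRF was bound there.

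Of the 2 cytoplasmic actins, 1 was called. Actg1, which encodes γ-actin and lies at chr11:120236512-120239617 on GRCm39, had 1641, 1585 and 1666 CPM in the control and 846, 1005 and 960.1 CPM in the optimized libraries, so that the groups stayed far apart. Its log2 fold change was -0.80 (SE 0.10, adjusted p = 0.00022, edgeR with Benjamini-Hochberg adjustment). Actb, which encodes β-actin and is a common reference gene, had 4328, 4464 and 4588 CPM in control and 3634, 4305 and 3878 CPM in optimized libraries. All optimized values of Actb were below all control values, but its log2 fold change of -0.18 (SE 0.11) did not pass the test (adjusted p = 0.26). Actb and Actg1 encode nearly identical proteins, and how any reads fitting both genes were counted is not given in the sources used here.

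Of the 8 genes for parts of the Arp2/3 complex, which starts new filaments as branches on old ones, 5 were called lower and none higher. The median log2 fold change of the 8 was -0.42. Actr3, 1 of the 2 actin-related subunits on which a branch begins, had 608, 649 and 641 CPM in control and 352, 392.2 and 419 CPM in optimized libraries, a 1.63-fold decrease (adjusted p = 0.00032, edgeR with Benjamini-Hochberg adjustment). Actr2, its partner, had 552, 584 and 484 CPM in control and 445, 381 and 388 CPM in optimized libraries (log2 fold change -0.42, SE 0.11). The remaining called subunits were Arpc5 at -0.57, Arpc1b at -0.50 and Arpc4 at -0.42 on the log2 scale, and in each of the 5 no optimized library reached the lowest control library. Arpc3 at -0.34 and Arpc2 at -0.19 did not pass the test. Neither did Arpc1a, in these cells the scarcer relative of Arpc1b, at 0.01. Libraries of Arpc1a had 58.1, 65.5 and 68.1 CPM in control and 61.6, 69.4 and 62.7 CPM in optimized cultures. Arpc4 missed the threshold without control replicate 2 (adjusted p = 0.063) or optimized replicate 3 (0.055), and Actr2 when replicate 1 (0.053) or 2 (0.075) of the control or replicate 3 (0.065) of the optimized libraries was left out, all by edgeR. Arpc3 was at -0.46 without optimized replicate 2 (adjusted p = 0.039, edgeR) and at -0.18 without optimized replicate 1 (0.16). It also passed with library size alone (adjusted p = 0.014), with the replicate block (0.015) and with the gene length trend removed (0.019, edgeR). Arpc4 shares 283 exonic bases with Ttll3 on the same strand, a gene with 0.33 times its counts that was called lower, at -0.36.

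Among the 6 nucleation promoting factors, which switch the Arp2/3 complex on, 1 was called. Was, the blood cell member of the WASP family, had 75.8, 68.6 and 77.2 CPM in control and 41.7, 47.7 and 48.1 CPM in optimized libraries. Its log2 fold change was -0.69 (SE 0.09, adjusted p = 0.00034, edgeR with Benjamini-Hochberg adjustment), with no overlap between the groups. Its widely expressed relative Wasl stood at -0.10, and of the WAVE complex Wasf2 stood at -0.10, Cyfip1 at -0.07 and the blood cell subunit Nckap1l at 0.02, each with overlapping groups. Wasf1 was close to the floor, at 0.31 to 0.61 CPM in control and 0.51 to 0.90 CPM in optimized libraries. It shares 317 exonic bases with Cdc40 on the opposite strand, a gene with 57.1 times its counts. Without a stated strand setting, reads over the shared bases cannot be told apart.

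The proteins that hold monomers or take filaments apart moved in both directions. Pfn1, which encodes profilin, the protein that feeds monomers to growing ends, had 690, 700 and 801 CPM in control and 366, 519 and 446 CPM in optimized libraries. Its log2 fold change was -0.72 (SE 0.13, adjusted p = 0.0023, edgeR with Benjamini-Hochberg adjustment), and every optimized library was lower. Tmsb4x, which encodes thymosin β4, the main protein that keeps monomers out of filaments, had 2185, 2624 and 2751 CPM in control and 2730.4, 4287 and 3661 CPM in optimized libraries. Optimized replicate 1 fell within the control range, the log2 fold change was 0.50 (SE 0.17), and the adjusted p of 0.049 was close to the threshold. Without any 1 of the 3 control libraries, optimized replicate 2 or optimized replicate 3, the adjusted p of Tmsb4x by edgeR was 0.068 to 0.19.

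Cap1, a cyclase-associated protein that recycles monomers with cofilin, was lower at -0.37 on the log2 scale, with 831 to 865 CPM in control and 641 to 673 CPM in optimized libraries. It shares 203 exonic bases with Ppt1 on the opposite strand, a gene with 0.34 times its counts that was called higher, at 0.59. Coro1b, a coronin that works at Arp2/3 branches, was lower at -0.45, with 312 to 351 and 202 to 271 CPM. Coro1b missed the threshold without control replicate 2 (adjusted p = 0.051) or control replicate 3 (0.059, edgeR). Coro1a, the coronin of blood cells, had 204, 194 and 193 CPM in control and 202, 285 and 261 CPM in optimized libraries, so optimized replicate 1 stood at the control level and the other two above it. The log2 fold change of Coro1a was 0.34 (SE 0.12, adjusted p = 0.061 by edgeR), and it was 0.47 without optimized replicate 1 (2e-04) but 0.22 without optimized replicate 2, where it was not called. Coro1a also passed with DESeq2 (adjusted p = 0.031) and with the gene length trend removed (0.0047). Of the others, the filament-severing proteins Cfl1 at -0.27 and Gsn at -0.16, Coro1c at -0.07 and the second thymosin Tmsb10 at 0.67 (SE 0.35) did not pass the test. With 1 library left out, Cfl1 reached from -0.42 without optimized replicate 2, past the threshold (adjusted p = 0.046), to -0.14 without optimized replicate 1 (0.40, edgeR). Tmsb10 was at 0.92 without optimized replicate 1, past the threshold (adjusted p = 0.015), and at 0.20 without optimized replicate 2 (0.64, edgeR). Neither subunit of capping protein, which blocks growing ends, was called: Capza1 stood at -0.22, with all optimized libraries below all control libraries, and Capzb at -0.04. Capza1 passed with library size alone (adjusted p = 0.0094) and with the gene length trend removed (0.038, edgeR).

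Evl had the log2 fold change farthest from 0 of all 59 genes. It encodes an Ena/VASP protein, which protects growing ends from capping in filopodia and at the leading edge, and lies at chr12:108520930-108654778 on GRCm39. Its values were 231, 230 and 236 CPM in control and 63.2, 67.1 and 63.0 CPM in optimized libraries, a 3.60-fold decrease with replicates within a few CPM of each other. The log2 fold change was -1.85 (SE 0.08, adjusted p = 1.9e-07, edgeR with Benjamini-Hochberg adjustment). Evl shares 281 exonic bases with Degs2 on the opposite strand. Degs2, with 0.47 times the counts of Evl, was also called lower, at -1.78, and without a stated strand setting reads over the shared bases cannot be told apart.

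Vasp, the founding member of that family, had 202, 201 and 208 CPM in control and 93.1, 114 and 112 CPM in optimized libraries. It was 1.92-fold lower (log2 fold change -0.94, SE 0.10, adjusted p = 5.2e-05, edgeR with Benjamini-Hochberg adjustment). The third relative, Enah, was scarce, with 0.96, 1.35 and 1.43 CPM in control and 2.04, 1.53 and 2.08 CPM in optimized libraries. All optimized values of Enah were above all control values, yet the log2 fold change of 0.59 (SE 0.28) did not pass the test (adjusted p = 0.16, edgeR). The formins, which elongate straight filaments from their growing end, lay between -0.17 and 0.09 on the log2 scale, namely Diaph1 at -0.17, Fmnl2 at -0.09, Diaph2 at 0.07 and Fmnl1 at 0.09, and none passed the test. Diaph1 passed with the gene length trend removed (adjusted p = 0.035, edgeR).

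Of the 6 bundling and crosslinking proteins, 4 were called lower and none higher. Fscn1 encodes fascin, which packs filaments into the tight bundles of filopodia, and lies at chr5:142946098-142958953. It had 79.8, 80.2 and 76.6 CPM in control and 21.1, 29.6 and 28.6 CPM in optimized libraries, with the lowest value in optimized replicate 1 and a wide gap between the groups. The decrease was 2.98-fold (adjusted p = 9.7e-06, edgeR with Benjamini-Hochberg adjustment). The study named Fscn1 from these same libraries, so its direction here is not independent evidence.

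Lcp1, the bundling protein of white blood cells also called L-plastin, was lower in every optimized library, with 1183, 1134 and 1199 CPM in control and 767, 772 and 828 CPM in optimized libraries (log2 fold change -0.57, SE 0.09). Its relative Pls3 was not called, at 0.16. Flna, which encodes filamin A, a crosslinker of filament networks, had 1038, 826 and 820 CPM in control and 722, 479 and 550 CPM in optimized libraries, with replicate 1 highest in both groups. Flna fell by 0.62 on the log2 scale (adjusted p = 0.015) and missed the threshold without control replicate 1 (0.066) or optimized replicate 3 (0.064, edgeR), while it stood at -0.69 (0.00026) with the gene length trend removed. Of the 2 non-muscle α-actinins, Actn4 was called lower, at -0.30, with 302 to 326 CPM in control and 247 to 263 CPM in optimized libraries, whereas Actn1 had 123 to 133 and 141 to 152 CPM, at 0.21 with an adjusted p of 0.076 by edgeR. Without optimized replicate 3 or any 1 of the control libraries, the adjusted p of Actn4 was 0.050 to 0.086. Actn1 passed with the gene length trend removed (adjusted p = 0.021, edgeR).

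The heavy chains of non-muscle myosin II, the motor of stress fibres and cell contraction, moved in opposite directions. Myh10, which encodes the IIB chain and lies at chr11:68582385-68707470, had 16.3, 15.8 and 13.8 CPM in control and 5.49, 4.60 and 4.69 CPM in optimized libraries. It was 3.10-fold lower, with a log2 fold change of -1.63 (SE 0.13, adjusted p = 1.2e-05, edgeR with Benjamini-Hochberg adjustment). Myh9, which encodes the IIA chain and lies at chr15:77644785-77726381, had 396, 322 and 286 CPM in control and 661, 453 and 524 CPM in optimized libraries. Every optimized library was above every control library, and replicate 1 was highest in both groups. Myh9 was 1.63-fold higher, with a log2 fold change of 0.71 (SE 0.16, adjusted p = 0.0071, edgeR), and 0.55 without optimized replicate 1 (0.0019). With the gene length trend removed from each library it stood at 0.65 (adjusted p = 0.00059, edgeR). With limma on log2(FPKM + 1) it stood at 0.55 with an adjusted p of 0.056.

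The light chains were not called. Myl6, the common essential light chain, stood at -0.23, but at -0.47 without optimized replicate 2 (adjusted p = 0.037) and at -0.034 without optimized replicate 1 (0.85, edgeR). Myl9, a regulatory light chain typical of smooth muscle, had 0.31, 0.53 and 0.18 CPM in control and 1.75, 0.26 and 0.53 CPM in optimized libraries, so that only optimized replicate 1 stood out. That library also held 6.87 CPM of Myh11, 2.98 CPM of Des and 11.3 CPM of Acta2, against at most 0.17, 0 and at most 6.05 CPM in the other 5 libraries. The part of these smooth muscle transcripts in the level of Myl9 was not tested, and without optimized replicate 1 its log2 fold change was 0.20 instead of 1.30. The single-headed class I myosins, which link filaments to membranes and act in phagocytosis, were not called, with Myo1f at -0.21 and Myo1e at 0.05.

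Tropomyosins, which line filaments and decide what else can bind them, were lower for 3 of 4 genes. Tpm1 had 62.0, 62.9 and 64.5 CPM in control and 32.5, 35.8 and 35.7 CPM in optimized libraries, a 1.82-fold decrease (log2 fold change -0.87, SE 0.08, adjusted p = 3.5e-05, edgeR with Benjamini-Hochberg adjustment). Tpm4 had 394, 417 and 413 CPM in control and 232, 257 and 272 CPM in optimized libraries, at -0.69. Tpm3 had 604 to 616 and 415 to 481 CPM, at -0.42. In all 3 the groups were apart. Tpm2, the scarce member of the family, went the other way without passing the test, with 2.45, 2.04 and 2.38 CPM in control and 3.98, 2.81 and 3.82 CPM in optimized libraries (log2 fold change 0.62, SE 0.22, adjusted p = 0.057, edgeR). Tpm2 was again highest in optimized replicate 1, without which it stood at 0.53 (adjusted p = 0.11, edgeR). Without optimized replicate 2 it passed at 0.76 (0.030, edgeR). The part of the smooth muscle transcripts of optimized replicate 1 and the fibroblast transcripts of optimized replicate 3 in the level of Tpm2 was not tested.

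**Figure D2:**
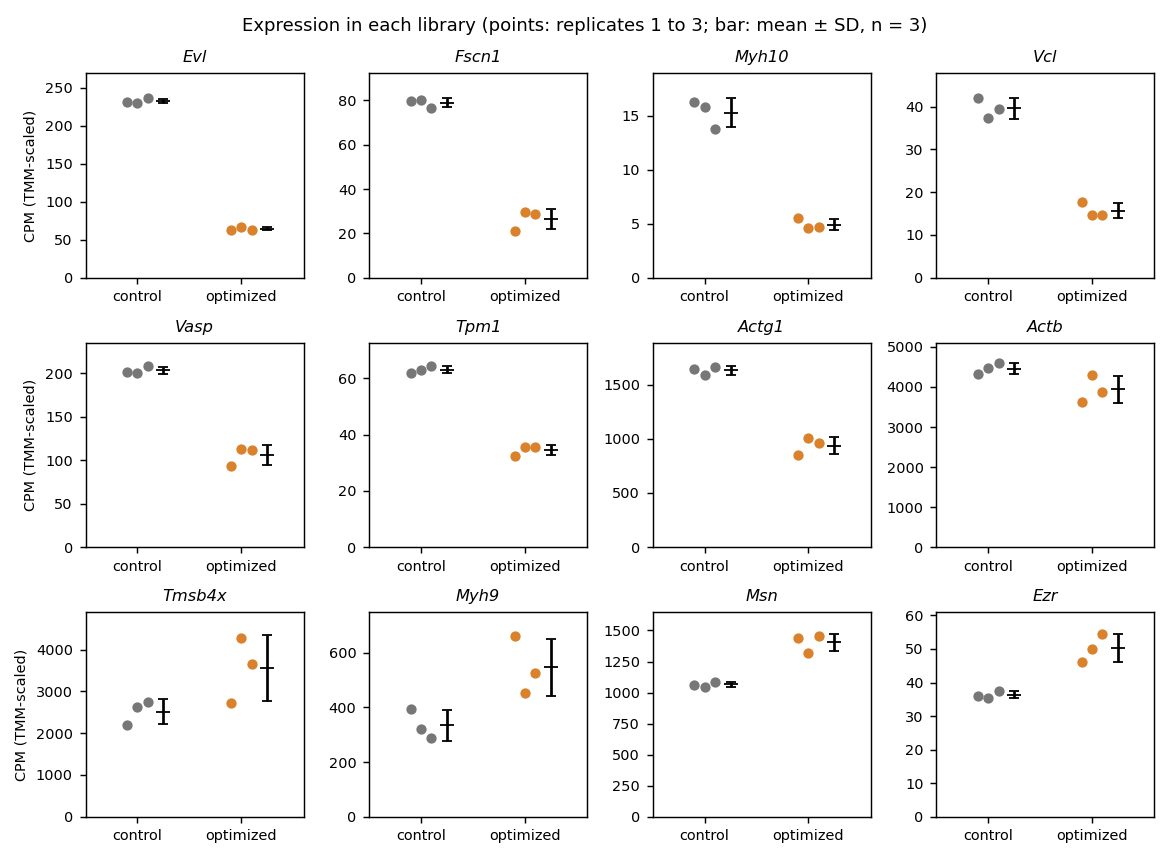
CPM with TMM scaling (vertical axes, from 0) of 12 of the genes in each library, with points for replicates 1 to 3 and a bar for the mean ± SD (n = 3). Evl, Fscn1, Myh10, Vcl, Vasp, Tpm1 and Actg1 were lower in the optimized cultures with a gap between the groups, Myh9, Msn and Ezr were higher with a gap, and the groups of Tmsb4x overlapped.

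Vcl, which encodes vinculin, the protein that reinforces focal adhesions and podosome rings by joining talin to actin, changed the most among the adhesion adaptors. It lies at chr14:20979449-21083758 on GRCm39, and its promoter window is among those printed above with a CArG box. Vcl had 42.1, 37.3 and 39.5 CPM in control and 17.8, 14.6 and 14.6 CPM in optimized libraries, a 2.53-fold decrease (log2 fold change -1.34, SE 0.11, adjusted p = 1.2e-05, edgeR with Benjamini-Hochberg adjustment). It shares 2104 exonic bases with Ap3m1 on the opposite strand, a gene with 2.53 times its counts that was not called, at 0.17, and reads over the shared bases cannot be told apart without a stated strand setting.

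Tln1, which encodes talin, the link between integrins and actin, had 1253, 990.5 and 981 CPM in control and 924, 655 and 730 CPM in optimized libraries. Replicate 1 was again the highest of each group, and no optimized library reached the control range. The log2 fold change was -0.48 (SE 0.15, adjusted p = 0.034, edgeR with Benjamini-Hochberg adjustment), and leaving out either of the first 2 control replicates or either of the last 2 optimized ones gave adjusted p-values of 0.068 to 0.14. Zyx, the adaptor zyxin, was lower at -0.31 (adjusted p = 0.017, edgeR), with 60.0 to 63.2 CPM in control and 47.6 to 51.9 CPM in optimized libraries, and its adjusted p was 0.061 to 0.073 after leaving out replicate 1 or 3 of the control or replicate 3 of the optimized libraries. Pxn, the adaptor paxillin, stood at -0.13 and was not called. Of the podosome parts, the scaffold Sh3pxd2a had 38.6, 34.4 and 28.4 CPM in control and 30.3, 17.8 and 24.3 CPM in optimized libraries, with overlapping groups and a log2 fold change of -0.49 (SE 0.18, adjusted p = 0.076, edgeR). Sh3pxd2a was at -0.68 without optimized replicate 1 (adjusted p = 0.0018, edgeR) and at -0.31 without optimized replicate 2, where it was not called. It also passed with DESeq2 (adjusted p = 0.045), without a filter on low counts (0.016) and with the gene length trend removed (0.0031). Cttn, which encodes cortactin and was low in all 6 libraries at 6.03 to 8.32 CPM, stood at 0.09.

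Of the 3 ERM proteins, which pin the actin cortex to the plasma membrane, 2 were called higher, as were 14.7% of all genes tested. Ezr, which encodes ezrin, had 35.8, 35.5 and 37.5 CPM in control and 46.1, 50.1 and 54.4 CPM in optimized libraries, with the groups apart. Its log2 fold change was 0.47 (SE 0.09, adjusted p = 0.0033, edgeR with Benjamini-Hochberg adjustment), and it was the only one of the 4 higher genes that stayed past the threshold in each alternative tried. Msn, which encodes moesin, the most abundant of the 3, had 1063, 1047 and 1085 CPM in control and 1436, 1322 and 1453 CPM in optimized libraries. Its log2 fold change was 0.40 (SE 0.09, adjusted p = 0.0086, edgeR). The adjusted p was 0.053 without control replicate 2, 0.058 with library size alone (both edgeR) and 0.083 with limma on log2(FPKM + 1). Rdx, which encodes radixin, stood at -0.15 without passing the test, although all its optimized values, 71.3 to 76.9 CPM, were below the control values of 80.9 to 84.7 CPM.

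Levels were compared between genes with FPKM, which scales counts by gene length. Tmsb4x was the most abundant of the 59 genes, with 2699 ± 270.1 FPKM in control and 3449 ± 632 FPKM in optimized libraries (SD, n = 3). Actb followed with 2359 ± 51.0 and 1889 ± 83.2 FPKM, then Cfl1 with 1004 ± 102 and 756 ± 112 FPKM, and Actg1 with 848 ± 20.1 and 442 ± 25.1 FPKM. Arpc1b came next in both groups, with 627 ± 18.3 and 400.5 ± 48.2 FPKM, so the order of these 5 genes by mean was the same. Each of these 5 genes was above the next in all 6 libraries, although the ranges over libraries of Tmsb4x and Actb overlapped in the control cultures and those of Actg1 and Arpc1b in the optimized cultures. Msn moved from the 11th to the 6th place, while Evl moved from the 29th to the 39th and Vasp from the 27th to the 33rd.

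**Figure D3:**
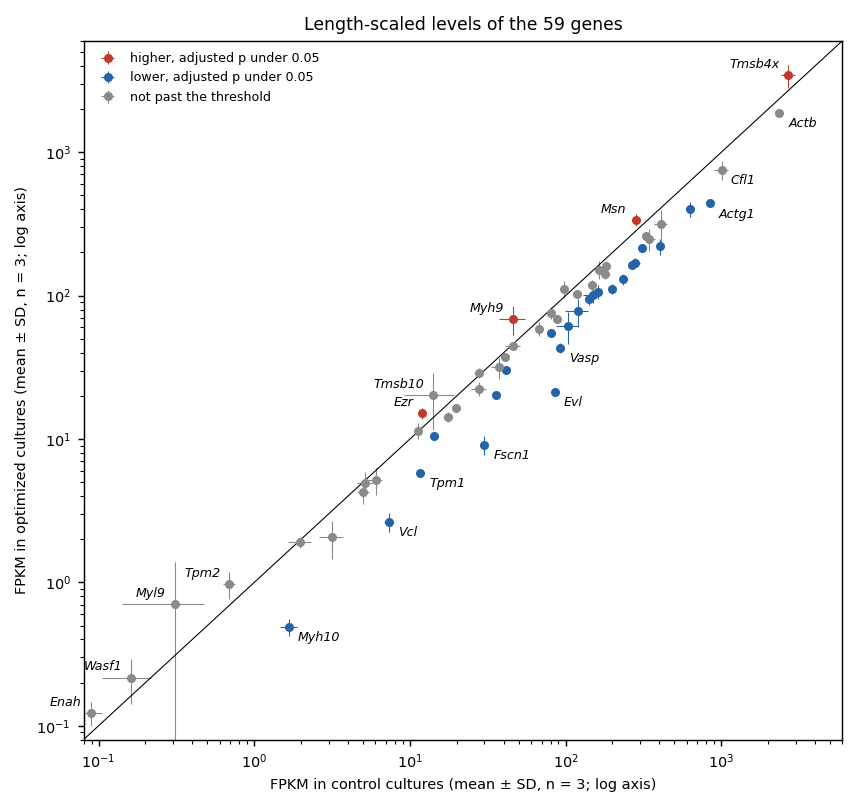
Mean FPKM of each of the 59 genes in control (horizontal) and optimized cultures (vertical), both on log axes, with bars of ± SD (n = 3) and a line where both are equal. Evl, Fscn1, Myh10 and Vcl lie farthest below the line among the genes called lower, and Tmsb4x, Msn, Myh9 and Ezr, called higher, lie above it.

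Ratios between related genes were taken within each library, where the scaling between libraries has no part. In 16 of the 21 pairs fixed for this purpose, the optimized libraries did not overlap the control libraries, 8 of them lower and 8 higher. The share for pairs of other genes was not computed. Among single genes tested, all optimized libraries lay above all control libraries in 21.4% and below in 22.5%. Most of the 16 pairs hold a gene that was itself called, so their count largely repeats those calls. For each of these 16 a two-sided exact permutation test over the 6 libraries gave p = 0.1, the smallest that 3 against 3 libraries allow, or 0.131 after Benjamini-Hochberg adjustment over the 21 pairs. The counts of Myh10 were 4.11%, 4.92% and 4.82% of those of Myh9 in control and 0.83%, 1.01% and 0.90% in optimized libraries, a log2 difference of -2.34 and the widest of the 21. Among the actins, Actg1 had 37.9%, 35.5% and 36.3% of the counts of Actb in control and 23.3%, 23.3% and 24.8% in optimized libraries. In the Ena/VASP family, Evl had 115%, 115% and 113% of the counts of Vasp in control and 67.9%, 59.1% and 56.3% in optimized libraries. By FPKM, Vasp was the higher of the pair in both groups, at 1.07 to 1.09 times Evl in control and 1.81 to 2.19 times in optimized libraries.

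Among the pairs that went up, Arpc1a rested at 6.19% to 7.21% of Arpc1b in control and at 8.90% to 11.0% in optimized libraries. Pls3 was at 3.48% to 3.59% of Lcp1 in control and at 5.37% to 6.31% in optimized libraries. Actn1 was at 40.0% to 41.3% of Actn4 in control and at 55.9% to 60.5% in optimized libraries. For each of these 3 pairs the scarcer gene by counts was the one not called. In the coronins, Coro1b was at 153% to 182% of Coro1a in control and at 94.6% to 99.9% in optimized libraries. Of the tropomyosins, Tpm1 and Tpm4 were lower against Tpm3, by log2 differences of -0.44 and -0.27, while Tpm2 was higher by 1.04. Ezr kept overlapping ratios to Msn, at 3.37% to 3.45% in control and 3.21% to 3.79% in optimized libraries, whereas Rdx was at 7.45% to 8.01% and 5.26% to 5.39%.

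**Figure D4:**
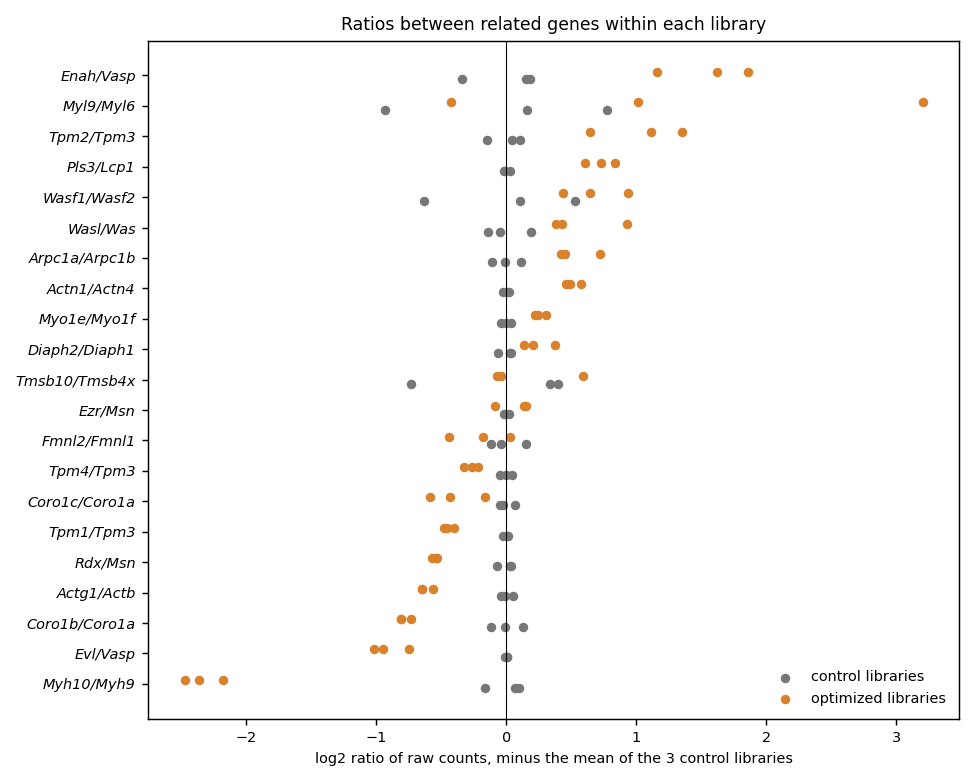
Log2 ratio of raw counts of each of the 21 pairs in every library (horizontal axis), with the mean of the 3 control libraries subtracted, for control and optimized libraries. Enah/Vasp at 1.55 and Myh10/Myh9 at -2.34 mark the ends among the pairs whose groups do not overlap, and Myl9/Myl6, Wasf1/Wasf2, Tmsb10/Tmsb4x, Ezr/Msn and Fmnl2/Fmnl1 overlap.

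Other genes of the same machinery were taken from lists of partners. Of 23 further parts of the Arp2/3, WAVE and WASP complexes, 7 were lower and 6 higher. Gmfg, which takes branches apart, stood at -1.66, the WAVE complex subunit Abi3 at 1.56, from 52.5 ± 2.08 to 155 ± 5.97 CPM (SD, n = 3), the Arp3 relative Actr3b at 0.81 and the WASH complex subunit Washc3 at -0.59. Among 35 tested adhesion and podosome genes, 13 were lower and 7 higher, with the kinase Src at -1.66 and the second talin, Tln2, at -1.44, while the leukocyte actin-binding protein Lsp1 stood at 2.03. Of 36 other actin-binding proteins, 10 were higher and 8 lower. Marcksl1, a membrane-bound actin binder, fell from 248 ± 18.2 to 28.6 ± 4.30 CPM, a log2 fold change of -3.11, Pdlim4 stood at -1.60, and Pdlim7 at 2.30 and the formin Inf2 at 1.87 were higher.

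SRF itself and its cofactors and smooth muscle type targets gave 5 lower and 2 higher genes of 14 tested. Srf stood at -0.36 (adjusted p = 0.0083, edgeR with Benjamini-Hochberg adjustment), Filip1l at -2.21, Fhl3 at -1.31 and Tagln2 at -0.92, and Ccn1 at 0.55, with an adjusted p of 0.046. Ccn1 missed the threshold without optimized replicate 3 or any 1 of the control libraries, with adjusted p-values of 0.081 to 0.18. The cofactors Mrtfa at -0.07 and Mrtfb at 0.31 were not called. Of the 14 other myosins tested, 3 were higher and 3 lower, with Myo1g at -0.97, Myo7a at 0.68, Myo9b at 0.53 and Myo10 at -0.52. Myo9b missed the threshold without control replicate 2 (adjusted p = 0.081) or control replicate 3 (0.070), and Myo10 without control replicate 1 (0.052, edgeR). Outside the actin system, 12 of 21 tubulin and other cytoskeletal genes were lower and 1 higher, with a median of -0.37, led by Tubb2a at -1.25, the tubulin-sequestering Stmn1 at -0.85, Tubb2b at -0.81 and Tuba1b at -0.67. These counts are to be read against the 14.7% higher and 15.2% lower among all genes tested.

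**Figure D5:**
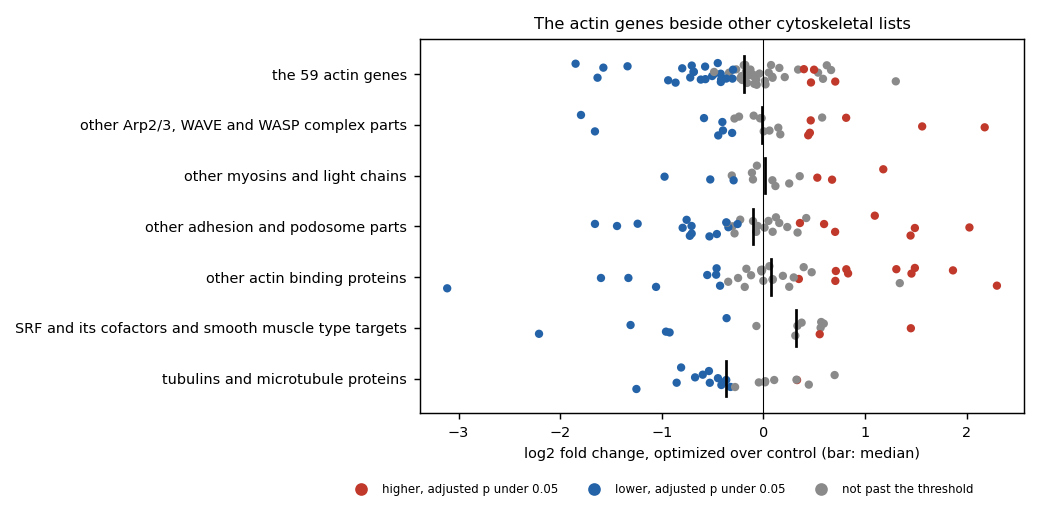
Log2 fold changes (horizontal axis, optimized over control) of the 59 genes and of 6 other cytoskeletal lists, with a point for each tested gene, a bar at the median of each list and colours for the result of edgeR's quasi-likelihood test. The median is -0.19 for the 59 genes, -0.37 for the tubulin list and 0.32 for the SRF list, and single genes reach from Marcksl1 at -3.11 to Pdlim7 at 2.30.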

How the data were processed

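Raw counts per gene, not normalized, and FPKM values of all 6 libraries were deposited by the authors. The labels and the study's methods name HISAT2, mm39 and featureCounts. Versions, the strand setting and the treatment of reads fitting several genes are not given in the sources used here. Groups and replicate numbers came from the labels.

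Counts were tested in R 4.3.3 with edgeR 4.0.16 (filterByExpr, TMM factors, quasi-likelihood test without further terms, Benjamini-Hochberg adjustment over all 14618 genes tested, threshold 0.05). The common dispersion was 0.016, a coefficient of variation of 0.13 between replicates. CPM are TMM-scaled. Standard errors are the log2 fold change divided by the root of the F statistic. The fits by edgeR, DESeq2 and limma were tested on simulated counts, while the ratios, the search for CArG boxes and the exon overlaps were not. The alternatives tried were DESeq2 1.42.0, scaling by relative log expression or by library size alone, leaving out the filter or asking for at least 10 counts in every library, a replicate block, removal of a gene length trend, limma 3.58.1 on FPKM, members left out of the scaling, and each library left out in turn.

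Every one of the 59 genes could be named. From each other list, up to 4 genes with the largest change among those past the threshold and with a mean of at least 5 CPM were named. Srf, Mrtfa and Mrtfb were named outside this rule, after their values were seen, as were Degs2, Ap3m1, Ttll3, Ppt1 and Cdc40. Some genes and lists under this rule are not reported here. The members and lists were chosen with earlier results of these data known. Gene positions are from GENCODE M39 on GRCm39, promoter windows from RefSeq on GRCm38.p6. No protein sequences were used here.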

Additional observations from a re-analysis of the deposited data

How the results depend on the processing

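Of the 27 called genes, 17 stayed past the threshold in each of the alternatives tried (16 lower and 1 higher), and no called gene changed sign. The number of the 59 genes called higher, 4, was 2 with library size alone, 7 with the gene length trend removed, 7 with that removal and the replicate block together, and 1 in each of the 3 limma fits on FPKM, and with 1 library left out it was 2 to 6. Leaving out 1 library gave 17 to 25 lower genes, all genes higher of 1603 to 2591 and all genes lower of 1646 to 2643. With library size alone the median of all genes was -0.12 and 32.3% of all calls were higher, against 49.1%, and the median of the 59 genes was -0.33. That median was -0.22 without a filter, -0.34 with limma on log2(FPKM + 1) and on log2(FPKM + 0.1), -0.35 for a mean FPKM of at least 1, and -0.23 to -0.16 with 1 library left out. All genes higher numbered 2142 in the main fit, 1513 with library size alone, 2556 with the gene length trend removed and 2727 with the replicate block as well. With limma they numbered 1472 on log2(FPKM + 1), 1486 on log2(FPKM + 0.1) and 1170 at a mean FPKM of at least 1, where fewer genes, 11572, were tested. With library size alone and in all limma fits on FPKM, Arpc2, Arpc3, Gsn, Capza1, Myo1f and Pxn also passed, each as lower.

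Of the genes not called, 8 changed sign somewhere, and the cause was not tested. Library size alone gave log2 fold changes of -0.116 for Arpc1a, -0.102 for Nckap1l, -0.0461 for Diaph2, -0.0394 for Fmnl1, -0.0741 for Myo1e and -0.0461 for Cttn. Limma on log2(FPKM + 1) gave -0.120 for Arpc1a, -0.121 for Nckap1l, -0.0582 for Diaph2, -0.0448 for Fmnl1, -0.0865 for Myo1e and -0.0310 for Cttn. On log2(FPKM + 0.1), with and without the minimum, these were -0.123, -0.122, -0.0702, -0.0456, -0.0875 and -0.0421. Without a filter Arpc1a stood at -0.00671 and Nckap1l at -0.00151. With the length trend removed Capzb stood at 0.000703 and Diaph2 at -0.0127, and with the replicate block as well at 0.000357 and -0.0126. With 1 library left out, Arpc1a ranged from -0.0534 to 0.0579, Nckap1l from -0.0602 to 0.0750, Capzb from -0.131 to 0.0470, Diaph2 from -0.0489 to 0.167, Fmnl2 from -0.223 to 0.0219, Cttn from -0.0259 to 0.202 and the log2 ratio difference of Tmsb10/Tmsb4x from -0.21 to 0.36.

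Whether the replicate numbers pair the samples cannot be decided from these few libraries. Deviations of same-numbered libraries correlated at 0.27, -0.012 and 0.18. Control replicate 1 correlated best with its own number, against -0.17 and -0.18 with optimized replicates 2 and 3. Control replicates 2 and 3 each correlated slightly better with another number, control replicate 3 at 0.189 with optimized replicate 2 against 0.185 with its own. With the replicate block, 6 of the 59 genes were higher and 25 lower, and of all genes tested 2401 were higher and 2523 lower. Depth limits Wasf1, Myl9 and Enah, with mean levels below 2 CPM.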
